A study of Mus musculus with 16 samples.

Results

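The genes described here encode the enzymes that oxidise fatty acids in mitochondria and peroxisomes and those of the tricarboxylic acid (TCA) cycle. The set of 36 genes was chosen by pathway and not by a cut on measured values, though earlier results of these data were known. Of these, 35 had an array probe matched by transcript accession, and all 35 passed the filter on dim probes, out of 25107 genes and unnamed probes tested. Fh1 (fumarate hydratase) is not analysed here. The 35 genes were read by 46 probes, and the probe with the highest mean level was used for each gene. Every probe used was well above background on all 16 arrays, and none was saturated.

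RNA came from brown adipose tissue (BAT) and white adipose tissue (WAT) of female mice and was measured on 16 single-colour Agilent expression arrays. The 4 groups were AdipoKO_BAT and AdipoKO_WAT, from mice that lack the glucocorticoid receptor (GR) specifically in adipose tissue, and CTL_BAT and CTL_WAT, from wild-type mice, with 4 arrays each. The labels give no Cre driver, strain, age or white fat depot, and do not say whether both depots came from the same animals. The arrays AdipoKO_WAT 1 and AdipoKO_WAT 2 differed by less than the noise between spots (SD of the log2 difference 0.083 against 0.0884 from spot noise) and were averaged to 1 sample, AdipoKO_WAT 1-2, so that n = 3 in that group and 15 samples remained.

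A level is the log2 processed signal minus the 75th percentile of its array, so a value of 0 marks a probe at that percentile. Levels of different probes are not set against each other, and only differences between samples are compared. The 75th percentile of the signal ranged from 312 to 1086 over the arrays, and between 66.7% and 83.6% of probes exceeded background clearly. Precision is limited by how many arrays there are. The groups were spread over 4 slides, 1 array of every group per slide. A group always sat at its own position, and position and group cannot be told apart. The level of Nr3c1, which encodes GR, was 1.40 ± 0.22 in AdipoKO_BAT and 2.45 ± 0.16 in CTL_BAT (SD, n = 4 each), 48.2% of the control signal (exact permutation p = 0.0286, two-sided, and limma adjusted p = 0.0864). In white fat it was 1.46 ± 0.14 in AdipoKO_WAT (SD, n = 3) and 2.11 ± 0.29 in CTL_WAT (SD, n = 4), 63.4% of the control signal (exact permutation p = 0.0286, two-sided, and limma adjusted p = 0.209). This permutation p is the smallest that either design allows. Nr3c1 had further probes, and these values come from the 1 with the highest mean level. Of the further probes, 1 was well above background on 4 CTL_BAT arrays and 1 AdipoKO_BAT array, and on 3 arrays of each white fat group. The extent of the loss by the further probes is not given here. Of 12 brown adipocyte markers, 12 were higher in CTL_BAT than in CTL_WAT by the limma test, against 20.5% of all features. Ucp1, the uncoupling protein of brown fat, had a level of 8.35 ± 0.11 in CTL_BAT and -4.47 ± 0.90 in CTL_WAT (SD, n = 4 each).

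Long-chain fatty acids are activated to acyl-CoA, carried into mitochondria by the carnitine shuttle, and shortened in repeated rounds by an acyl-CoA dehydrogenase, a hydratase, a hydroxyacyl-CoA dehydrogenase and a thiolase. The electrons pass through the electron transfer flavoprotein to ubiquinone, and the acetyl-CoA enters the TCA cycle. Brown fat is rich in mitochondria and burns fatty acids for heat, whereas white fat mainly stores them. Fatty acid oxidation genes are known targets of the nuclear receptors PPAR and ERR, which bind sites built on the half-site AGGTCA.

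Promoters of 32 of the 36 genes were matched by symbol in a RefSeq table (GRCm38.p6), each running from 250 bases before the annotated start to 50 bases after it. The promoters of Cpt1a, Acadm and Sucla2 are shown because Cpt1a was the exception to the depot pattern below, Acadm encodes the medium-chain dehydrogenase, and Sucla2 had the largest depot difference in control mice. All of them are among the 8 of 32 promoters with AGGTCA on either strand, so they do not stand for the rest. Each promoter shown is printed along the strand of its gene, and capitals mark AGGTCA or its reverse complement TGACCT.
Cpt1a: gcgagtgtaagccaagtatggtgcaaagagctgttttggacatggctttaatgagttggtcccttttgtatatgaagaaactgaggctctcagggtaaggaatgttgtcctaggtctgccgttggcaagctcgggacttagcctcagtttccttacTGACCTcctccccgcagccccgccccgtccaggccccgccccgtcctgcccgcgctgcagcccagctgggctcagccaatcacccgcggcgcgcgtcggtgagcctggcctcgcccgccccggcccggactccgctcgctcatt
Acadm: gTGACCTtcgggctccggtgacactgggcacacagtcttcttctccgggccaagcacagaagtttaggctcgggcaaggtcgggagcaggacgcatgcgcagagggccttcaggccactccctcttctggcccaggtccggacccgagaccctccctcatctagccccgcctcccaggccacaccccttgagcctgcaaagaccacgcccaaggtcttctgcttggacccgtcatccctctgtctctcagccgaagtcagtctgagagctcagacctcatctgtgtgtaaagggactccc
Sucla2: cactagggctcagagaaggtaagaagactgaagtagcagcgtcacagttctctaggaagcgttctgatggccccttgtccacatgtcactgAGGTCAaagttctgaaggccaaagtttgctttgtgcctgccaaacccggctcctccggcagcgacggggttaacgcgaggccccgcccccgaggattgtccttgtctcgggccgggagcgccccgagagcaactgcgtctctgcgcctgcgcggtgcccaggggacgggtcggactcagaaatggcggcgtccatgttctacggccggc
These windows lie at chr19:3323051-3323350 on the plus strand for Cpt1a, chr3:153944594-153944893 on the minus strand for Acadm, and chr14:73552536-73552835 on the plus strand for Sucla2. The first base of the match is at position -94 relative to the start in Cpt1a and at -249 in Acadm, both as the reverse complement, and at -159 in Sucla2 as AGGTCA itself. On either strand, AGGTCA occurred in 8 of the 32 promoters (25.0%), against 18.1% of all 27025 promoters in the table. The 8 were those of Acadm, Acadvl, Cpt1a, Echs1, Fh1, Idh3g, Ogdh and Sucla2. The longer motif TCAAGGTCA (the extended ERR half-site) and the direct repeat of PPAR with its partner RXR, which both contain AGGTCA, were searched on both strands and matched 0 of the 32, against 0.47% and 0.0481% of all promoters. A match here is a match of letters and no measure of binding.

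Brown fat was compared with white fat first in control mice. In CTL_BAT, 34 of the 35 enzymes of fatty acid oxidation and the TCA cycle were higher than in CTL_WAT (limma, Benjamini-Hochberg adjusted p under 0.05), where 20.5% of all features were called higher. The median difference over the 35 genes was 2.71 on the log2 scale, against 0.15 over all features. The 1 gene called lower was Cpt1a, where 13.7% of all features were called lower. In all 35 genes the 4 CTL_BAT samples lay outside the range of the 4 CTL_WAT samples, 34 above it and 1 below it. Among all features, 26.1% lay above without overlap and 17.5% below.

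The isoforms of carnitine palmitoyltransferase 1, the first step of the carnitine shuttle, differed between the depots in opposite directions. Cpt1a, the isoform best known from liver, had levels of 0.00, 0.14, -0.30 and -0.17 in CTL_BAT and 1.45, 1.79, 1.23 and 1.60 in CTL_WAT. Every CTL_BAT sample was lower than every CTL_WAT sample. The difference was -1.60 ± 0.18 (SE; limma adjusted p = 1.51e-05), or 3.03-fold lower in CTL_BAT. The second Cpt1a probe gave -1.07 ± 0.19 (SE). Cpt1b, the isoform of muscle and brown fat, which is not among the 36 genes, had levels of 5.68, 5.83, 5.64 and 5.59 in CTL_BAT and -1.89, -1.60, -2.38 and -2.36 in CTL_WAT. These groups lay far apart, with a difference of 7.74 ± 0.24 (SE; limma adjusted p = 2.75e-10), or 213-fold higher in CTL_BAT. Cpt1b had a further probe, whose values are not given here. In GR knockout mice the directions were the same. Cpt1a had levels of 0.25, -0.06, 0.36 and 0.29 in AdipoKO_BAT and 1.65, 1.41 and 1.81 in AdipoKO_WAT, a difference of -1.41 ± 0.19 (SE; limma adjusted p = 0.000127). Cpt1b differed by 7.86 ± 0.25 (SE; limma adjusted p = 6.31e-10), or 232-fold higher in AdipoKO_BAT.

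**Figure D1:**
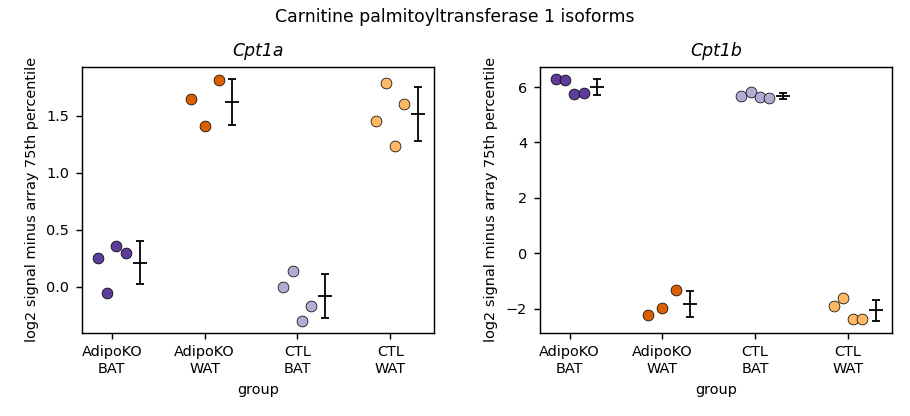
Levels of Cpt1a (left) and Cpt1b (right) in each sample, as log2 signal relative to the array's 75th percentile, with the mean ± SD of each group at the right of its points. Cpt1a is lower in both BAT groups than in both WAT groups, and Cpt1b is higher in both BAT groups, with group means of 6.02 and 5.68 against -1.84 and -2.06. The y axes differ between the panels.

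The rest of the shuttle was higher in brown fat. Slc25a20, the carnitine-acylcarnitine translocase of the inner membrane, had levels of 5.03, 5.04, 5.10 and 4.80 in CTL_BAT and 1.07, 1.61, 1.18 and 1.18 in CTL_WAT. The groups were well separated, by 3.74 ± 0.35 (SE; limma adjusted p = 4.08e-06), or 13.3-fold. Cpt2, which returns the acyl group to CoA inside the mitochondrion, differed by 2.29 ± 0.47, and Crat, the carnitine acetyltransferase, by 2.31 ± 0.45.

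All 4 acyl-CoA dehydrogenases were higher in CTL_BAT, with a median difference of 3.26. Acadl, the long-chain dehydrogenase, had levels of 6.34, 6.34, 6.40 and 6.24 in CTL_BAT and 2.06, 3.03, 2.59 and 2.50 in CTL_WAT. The brown fat samples hardly varied, and all stood above the white fat samples. The difference was 3.78 ± 0.32 (SE; limma adjusted p = 1.90e-06), or 13.8-fold. The very-long-chain Acadvl and the medium-chain Acadm each differed by 3.26, and the short-chain Acads by 2.55.

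The 5 enzymes of the hydratase, hydroxyacyl-CoA dehydrogenase and thiolase steps were likewise higher, between 2.25 (Echs1, the short-chain hydratase) and 3.69 (Acaa2). Acaa2, the mitochondrial thiolase, had levels of 8.85, 8.97, 8.97 and 8.93 in CTL_BAT and 5.36, 5.52, 4.90 and 5.20 in CTL_WAT. The gap between the groups was many times the spread within them (SE 0.35; limma adjusted p = 4.54e-06), a 12.9-fold difference. Hadha and Hadhb, the subunits of the trifunctional protein that acts on long chains, differed by 3.27 and 3.39. Hadh, the dehydrogenase for shorter chains, differed by 2.44.

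Auxiliary enzymes handle double bonds and release acyl groups from CoA. The enoyl-CoA isomerases Eci1 and Eci2 differed by 2.71 and 1.69, and the dienoyl-CoA reductase Decr1 by 2.39. Acot2, a mitochondrial acyl-CoA thioesterase, had levels of 0.34, 0.63, 0.27 and 0.28 in CTL_BAT and -2.0, -2.19, -2.31 and -2.27 in CTL_WAT. Both groups were tight, and the difference of 2.58 ± 0.18 had the smallest adjusted p of the 35 genes (limma, 4.08e-07). Acot2 has a close paralogue in Acot1, and Acaa1a in Acaa1b, so a probe may read both copies of a pair, which was not checked.

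The peroxisomal enzymes differed by a median of 1.29, the lowest of the 7 groups of enzymes. The peroxisomal thiolases Acaa1a and Acaa1b differed by 0.84 ± 0.28 and 1.29 ± 0.46 (SE; limma adjusted p = 0.0319 and 0.0417), nearer to the median of all features than any other gene called higher. For Acaa1a, in the fit with every probe on its own, the further probes gave 0.98 ± 0.33 and 0.85 ± 0.33 (SE; limma adjusted p = 0.0347 and 0.0629), so 1 of its 3 probes did not pass. The bifunctional enzyme Ehhadh had levels of 4.07, 4.05, 3.75 and 4.21 in CTL_BAT and 0.86, 2.21, 0.98 and 1.26 in CTL_WAT. CTL_WAT 2 was the highest of its group, yet all white fat samples were below brown fat, by 2.69 ± 0.50 (SE; limma adjusted p = 0.000904).

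Electron transfer to ubiquinone is carried out by the flavoprotein subunits Etfa and Etfb and the dehydrogenase Etfdh. Etfdh had levels of 6.87, 7.04, 6.82 and 6.81 in CTL_BAT and 3.62, 4.26, 3.56 and 3.67 in CTL_WAT. Brown fat was higher in every sample, by 3.11 ± 0.38 (SE; limma adjusted p = 3.38e-05), or 8.62-fold. Etfa differed by 2.77 and Etfb by 1.88.

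All 12 measured TCA cycle genes were higher in CTL_BAT, by a median of 2.93. Suclg1, the alpha subunit shared by both succinate-CoA ligases, had levels of 7.66, 7.61, 7.79 and 7.80 in CTL_BAT and 4.28, 4.41, 4.10 and 4.22 in CTL_WAT. Both groups were tight beside the difference of 3.46 ± 0.25 (SE; limma adjusted p = 6.74e-07). The beta subunits, which set the nucleotide used, differed by 3.81 (Sucla2, ATP) and 2.07 (Suclg2, GTP). Among the other TCA genes, the isocitrate dehydrogenase subunits Idh3a, Idh3b and Idh3g differed by 3.78, 3.46 and 2.75, and the NADP-dependent Idh2 by 2.34. Ogdh, Dlst and Dld, which form the oxoglutarate dehydrogenase complex, differed by 3.40, 2.94 and 2.93. Citrate synthase, Cs, and malate dehydrogenase, Mdh2, differed by 1.96 and 1.69, the lower end of the TCA genes.

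The same comparison in GR knockout mice again called 34 of 35 genes higher in AdipoKO_BAT than in AdipoKO_WAT, where 17.1% of all features were called higher. It called 1 gene, Cpt1a, lower, where 13.4% of all features were. In a fit of only these groups, 7.67% of all features were called higher and 4.39% lower. The count of the 35 genes in that fit is not given here. The groups did not overlap for any of the 35 genes (15.3% of all features did not overlap with AdipoKO_BAT above, and 10.2% with it below). The median difference was 3.05, against -0.07 over all features, and the largest was 4.52 ± 0.38 (SE; limma adjusted p = 3.25e-06) for Acaa2. Within each slide, 34 genes were higher in brown fat and Cpt1a lower, in knockout and in control mice alike. The slide medians were 3.34, 3.80, 1.70 and 4.28 in knockout mice, where the lowest belonged to the slide with AdipoKO_WAT 4, and 2.71, 2.47, 2.95 and 2.91 in control mice.

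Markers of other cell types moved with depot as well. All 23 skeletal muscle markers were higher in sign in CTL_BAT, and 20 were called higher, against 20.5% of all features. The level of that list (the median deviation of its genes from their mean over the samples) was 2.04, 2.72, 1.86 and -1.24 in CTL_BAT and -2.86 to -2.22 in CTL_WAT. In CTL_BAT 4, whose muscle level was the lowest of its group, the level of the 35 genes was 1.47, against 1.47 to 1.59 in the other CTL_BAT samples, and Cpt1b was 5.59, against 5.64 to 5.83. B cell markers went the other way, with 6 of 10 called lower in CTL_BAT, and 9 of 16 intestinal epithelium markers were called lower. All 9 mesothelium markers were called lower, with a median difference of -6.44, as were all 10 macrophage markers (median -2.19) and 9 of 10 fibroblast and matrix markers (median -1.73). Beside these counts, 13.7% of all features were called lower. Their part in the depot differences was not tested. In bulk tissue, fewer cells of a type and less RNA per cell cannot be told apart.

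**Figure D2:**
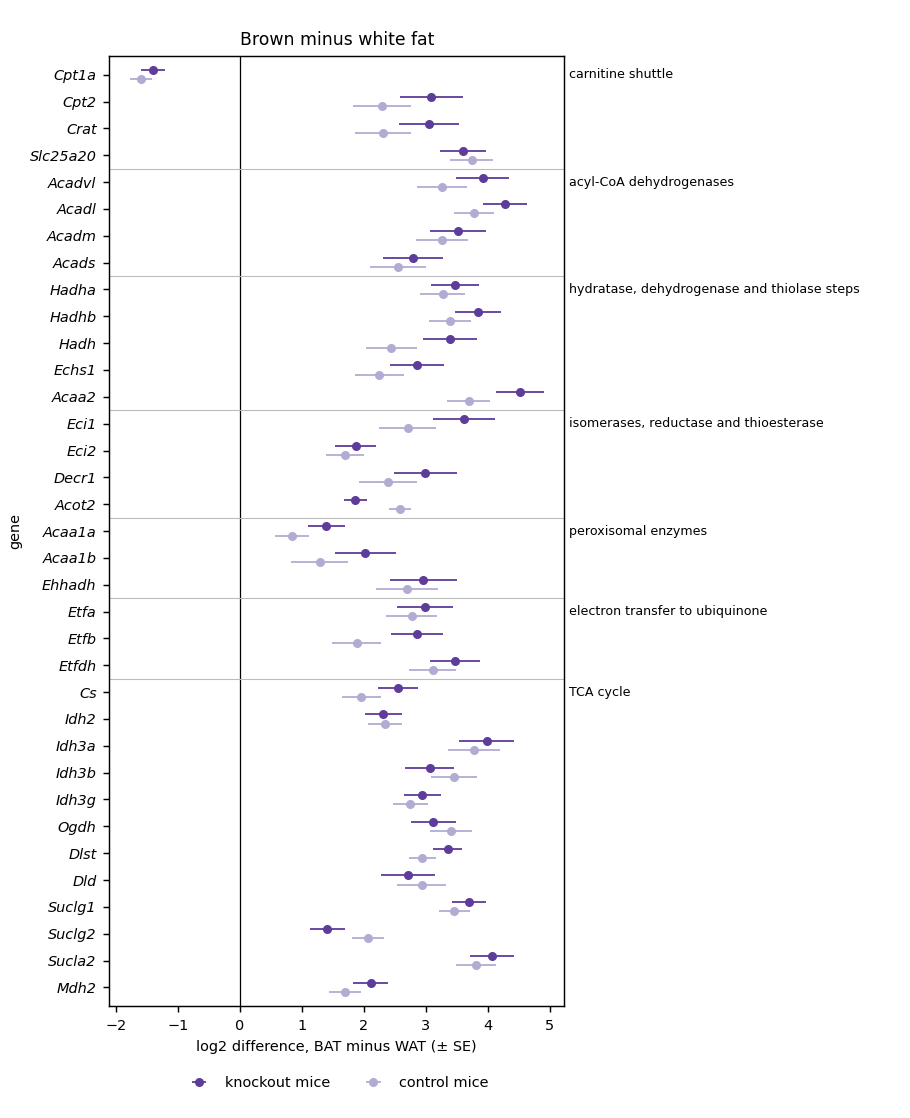
Log2 difference of brown minus white fat ± SE for each of the 35 genes, in knockout mice (dark, upper point) and control mice (pale, lower point), grouped by enzyme role. All genes lie right of 0 in both, apart from Cpt1a at -1.41 and -1.60, and the peroxisomal thiolases Acaa1a and Acaa1b lie closest to 0 among the rest in control mice.

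GR knockout was compared with control next, in white fat. No difference in the 35 genes passed the threshold: 0 were called by limma in AdipoKO_WAT against CTL_WAT, where 0.0597% of all features were called in either direction. At an unadjusted p under 0.05, 7 of 35 passed, against 18.0% of all features. The spread behind each p is 1 value per gene over all 4 groups. The median SD of the 35 genes was 1.10 in AdipoKO_WAT and 0.24 in CTL_WAT, against 0.24 in AdipoKO_BAT and 0.08 in CTL_BAT. The SE in white fat thus takes in the smaller spread of brown fat. In a fit of only AdipoKO_WAT and CTL_WAT, 1804 of all features passed an unadjusted p under 0.05, against 4513 in the main fit. The change was negative in 33 of 35 genes, against 33.5% of all features, and the median was -0.67, against 0.24 over all features. In 0 genes were the groups free of overlap, against 1.28% of features with AdipoKO_WAT entirely below and 6.34% with it entirely above.

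The 3 knockout samples did not move alike. In AdipoKO_WAT 1-2, 34 of 35 genes were below the lowest control, and in AdipoKO_WAT 3, 33 were. In AdipoKO_WAT 4, 30 of 35 were above the highest control and 0 below the lowest. The median deviation from the control mean was -1.37 in AdipoKO_WAT 1-2, -1.21 in AdipoKO_WAT 3 and 0.54 in AdipoKO_WAT 4. Over all features it was -0.04, 0.48 and 0.22. The share of all features outside the control range was not counted for single samples, so the counts above have no background.

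The genes with the smallest p-values show this pattern. Decr1, the dienoyl-CoA reductase, had levels of -2.44, -1.78 and 0.40 in AdipoKO_WAT and -0.15, 0.62, -0.34 and -0.12 in CTL_WAT. The first 2 knockout samples were below every control and the last lay within the control range, and the change was -1.28 ± 0.51 (SE; limma adjusted p = 0.257). Etfdh had levels of 1.96, 2.22 and 4.10 in AdipoKO_WAT and 3.62, 4.26, 3.56 and 3.67 in CTL_WAT, a change of -1.02 ± 0.41 (SE; limma adjusted p = 0.257). Hadh had levels of 2.25, 2.66 and 4.92 in AdipoKO_WAT and 4.29, 4.59, 4.31 and 4.34 in CTL_WAT, a change of -1.10 ± 0.44 (SE; limma adjusted p = 0.258). Here AdipoKO_WAT 4 was the highest of all 7 white fat samples. Within slides, the change of Decr1 was -1.63, -3.03 and -2.35 on the slides holding the other knockout arrays and 0.74 on the slide of AdipoKO_WAT 4.

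Without AdipoKO_WAT 4, 32 of 35 genes were called lower (limma), and the median was -1.29, against 0.28 over all features. Of all features, 15.9% were called lower in this fit and 21.1% higher. The sample left out was the 1 that went the other way, and n = 2 knockout samples remained. Their p-values therefore rest mainly on the spread within the other groups. The exceptions were Cpt1a (0.01 ± 0.20), Acot2 (-0.11 ± 0.17) and Suclg2 (-0.61 ± 0.26). Cpt2 fell by 2.13 in this fit (limma adjusted p = 0.000112) and Decr1 by 2.11 (limma adjusted p = 0.000777). Without AdipoKO_WAT 1-2, the median was -0.27, against 0.26 over all features, and 0 genes were called. With all samples, the change of Cpt1a was 0.11 ± 0.19 and that of Acot2 0.09 ± 0.19, the 2 genes with a positive sign.

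Several lists of cell type markers differed in level between these samples. The adipocyte list stood at -2.34, -1.50 and 0.75 in AdipoKO_WAT 1-2, 3 and 4 and between -0.43 and 0.12 in CTL_WAT. All 18 measured adipocyte markers had a negative change and 0 were called. The B cell list stood at 5.07, 4.79 and -1.24 in AdipoKO_WAT and at 0.14, -0.48, 3.70 and 3.02 in CTL_WAT. All 10 B cell markers had a positive change and 0 were called. The mesothelium list stood at -1.35, -0.10 and 2.18 in AdipoKO_WAT and at 5.02, 3.54, 2.54 and 4.13 in CTL_WAT. All 9 mesothelium markers had a negative change, with a median of -3.06. Of these, 7 lay below the controls without overlap, and 1, the transcription factor Wt1, was called lower (limma adjusted p = 0.0358). The macrophage list stood at 0.31, 0.25 and 0.12 in AdipoKO_WAT and at 1.29, 1.78, 0.95 and 0.99 in CTL_WAT. Of 10 macrophage markers, 9 had a negative change, 5 lay below the controls without overlap and 0 were called (median -0.72). The fibroblast and matrix list stood at -0.96, -0.83 and 0.87 in AdipoKO_WAT and at 1.52, 1.83, 0.27 and 0.93 in CTL_WAT, with a negative change in 10 of 10 markers, 1 of them without overlap, and 0 called (median -1.35). Among all features, 1.28% lay below the controls without overlap. The mesothelium and macrophage levels were below every control in all 3 knockout samples, AdipoKO_WAT 4 included. The intestinal epithelium list stood at -0.95, 0.29 and -0.73 in AdipoKO_WAT and was highest in CTL_WAT 1 and 4, at 6.42 and 5.13. Without CTL_WAT 1 and 4, the median change of the 35 genes was -0.67, against 0.28 over all features, and 0 were called. The part of adipocyte, B cell, mesothelial, macrophage and fibroblast content in the change was not tested.

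**Figure D3:**
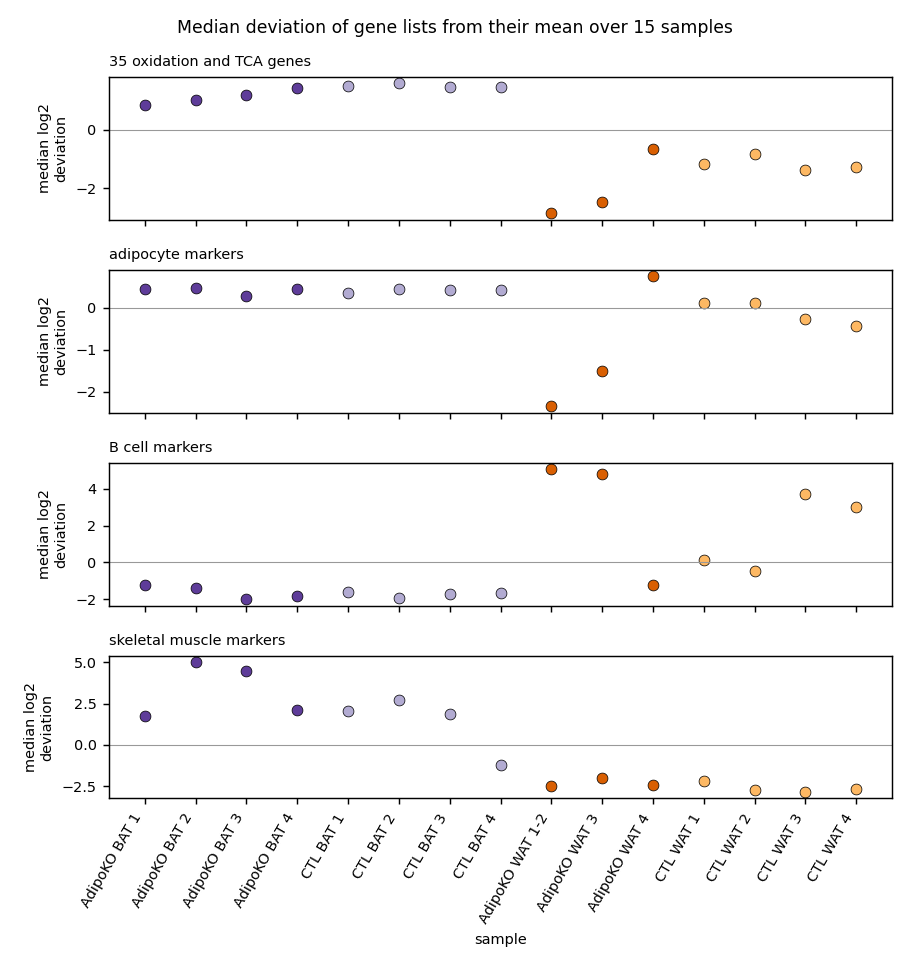
Level of the 35 oxidation and TCA genes and of 3 marker lists in each of 15 samples, as the median log2 deviation of the genes of a list from their mean over the samples. AdipoKO_WAT 1-2 and 3 are lowest for the 35 genes (-2.86 and -2.48) and for adipocyte markers and highest for B cell markers, while AdipoKO_WAT 4 stands at -0.64 for the 35 genes, above the 4 CTL_WAT samples.

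In brown fat, 0 of the 35 genes were called by limma in AdipoKO_BAT against CTL_BAT, where 0.00398% of all features were called. At an unadjusted p under 0.05, 5 of 35 passed, against 13.2% of all features. These tests use 1 spread per gene over all 4 groups. The median SD of the 35 genes was 1.10 in AdipoKO_WAT, against 0.24 in AdipoKO_BAT and 0.08 in CTL_BAT. Cpt2, for example, had an SE of 0.47 in brown fat, with SDs of 0.04 and 0.12. In a fit of only these groups, 6036 of all features passed an unadjusted p under 0.05, against 3310 in the main fit. The change was negative in 28 of 35 genes, against 41.6% of all features, with a median of -0.25, against 0.08. In 15 genes all 4 AdipoKO_BAT samples were below all 4 CTL_BAT samples, against 9.2% of all features, and in 0 genes were they all above, against 8.6%. These 15 were Cpt2, Crat and Slc25a20 of the shuttle, Acadm, Acads, Hadha, Hadhb, Acot2, Etfdh, and the TCA genes Idh3b, Idh3g, Ogdh, Dld, Suclg2 and Sucla2.

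Suclg2, the GTP-specific beta subunit, had levels of 1.04, 1.49, 1.78 and 2.19 in AdipoKO_BAT and 2.66, 2.66, 2.58 and 2.48 in CTL_BAT. Every knockout sample was below every control, and the change was -0.97 ± 0.26 (SE; limma adjusted p = 0.189). Acot2 had levels of -0.29, -0.38, -0.30 and 0.00 in AdipoKO_BAT and 0.34, 0.63, 0.27 and 0.28 in CTL_BAT, a change of -0.63 ± 0.18 (SE; limma adjusted p = 0.198). Dld, the dihydrolipoamide dehydrogenase shared by several dehydrogenase complexes, had levels of 4.40, 4.87, 5.76 and 6.17 in AdipoKO_BAT and 6.43, 6.39, 6.44 and 6.46 in CTL_BAT. The controls were nearly identical and the knockout samples ranged widely below them. The change was -1.13 ± 0.39 (SE; limma adjusted p = 0.257), with an SE that takes in the spread of all 4 groups. Without AdipoKO_WAT 4 it was -1.13 ± 0.30 (SE; limma adjusted p = 0.0841). On each slide these 3 genes were lower in the knockout array, by between 0.28 and 1.99 on the log2 scale.

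The knockout samples differed among themselves in how far they departed from the controls. AdipoKO_BAT 1 had 27 genes below the control range and 8 above it, and AdipoKO_BAT 2 had 26 and 6. AdipoKO_BAT 3 had 30 below and 2 above, and AdipoKO_BAT 4 had 18 below, 2 above and 15 within. The share of all features outside the control range was not counted for single samples, so these counts have no background. The median deviation in AdipoKO_BAT 1 to 4 was -0.36, -0.32, -0.28 and -0.10, against 0.38, 0.18, -0.04 and -0.08 over all features. The widest departures were in AdipoKO_BAT 1, at -2.03 for Dld and 0.77 for Etfb. In AdipoKO_BAT 4 the deviations ran between -0.45 (Cpt2) and 0.37 (Cpt1a). By the probes used, genes of 1 complex differed in sign: in AdipoKO_BAT 1 the deviation was -1.32 for Ogdh, -2.03 for Dld and 0.26 for Dlst, whose other probe is given below. Likewise, Etfa had levels of 5.44, 5.56, 6.31 and 6.71 in AdipoKO_BAT and 6.51 to 6.78 in CTL_BAT, while Etfb, its partner subunit, had 9.18, 9.01, 8.51 and 8.49 in AdipoKO_BAT and 8.32 to 8.50 in CTL_BAT.

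**Figure D4:**
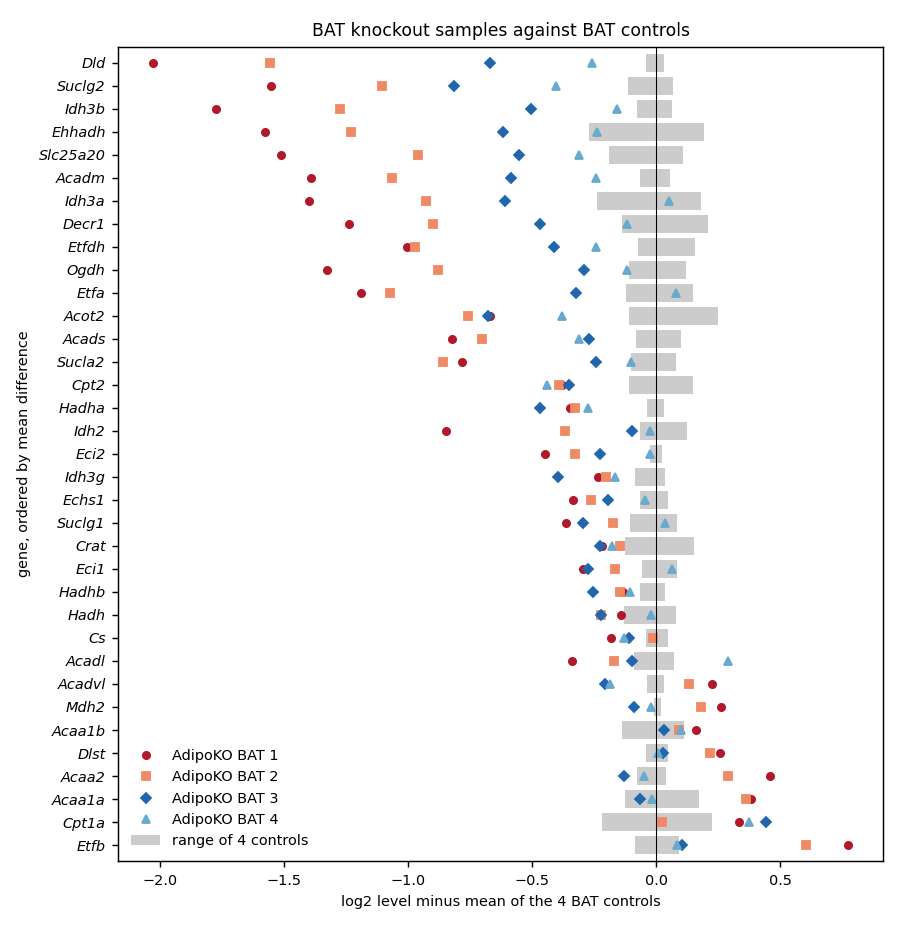
Deviation of each AdipoKO_BAT sample from the mean of the 4 CTL_BAT samples for the 35 genes, ordered by their mean difference, with the range of the controls as a grey bar (x axis in log2 units). The widest deviations are in AdipoKO_BAT 1, from -2.03 for Dld to 0.77 for Etfb, and AdipoKO_BAT 4 has the median nearest to the controls (-0.10). The order of the samples differs between genes: AdipoKO_BAT 3 lies farthest for Hadha (-0.47) and AdipoKO_BAT 4 for Cpt2 (-0.45).

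The arrays of AdipoKO_BAT 1 and 2 were the dimmest of the study, with a 75th percentile of 312 and 331.4, against 512.7 and 501.9 for AdipoKO_BAT 3 and 4 and 513.3 to 573.1 for CTL_BAT. Without AdipoKO_BAT 1 and 2, which left AdipoKO_BAT 3 and 4, the median change was -0.18 and 0 genes were called. Over all features the median in this fit was -0.06. In the main fit these medians were -0.25 and 0.08, so the 35 genes lay nearer to all features without the dim arrays. Within slides, the median change was -0.39, -0.31, -0.22 and -0.12 on the slides of AdipoKO_BAT 1 to 4, while the median of all features was 0.43, 0.15, -0.10 and -0.07. Endothelial markers stood at 1.30, 1.03, 0.25 and 0.32 in AdipoKO_BAT and between -0.02 and 0.18 in CTL_BAT. The skeletal muscle list stood at 1.76, 5.01, 4.48 and 2.10 in AdipoKO_BAT and at 2.04, 2.72, 1.86 and -1.24 in CTL_BAT. The part of brightness and of these cell types in the change was not tested.

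A further probe gave another view of 10 genes, through 11 probes. In brown fat 9 of the 11 had the same sign as the probe used, but several differed in size. For Dlst, the succinyltransferase of the oxoglutarate complex, the probe used changed by 0.13 ± 0.22 (SE) and the other by -1.09 ± 0.39. The deviations of the other Dlst probe were -2.06, -1.45, -0.55 and -0.29 in AdipoKO_BAT 1 to 4, and the probe used had 0.26, 0.22, 0.02 and 0.01. For Dld the changes were -1.13 and -2.03, for Etfdh -0.66 and -1.50, and for Sucla2 -0.50 and -0.93, each with the probe used first. In white fat 11 of 11 had the same sign, and likewise in both comparisons between depots. For the interaction (the change in brown fat minus that in white fat), 9 of 11 had the same sign. The exceptions were Dlst, at 0.41 ± 0.32 by the probe used and -0.70 ± 0.58 by the other, and Etfdh, at 0.36 ± 0.55 and -0.90 ± 0.58 (SE).

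**Figure D5:**
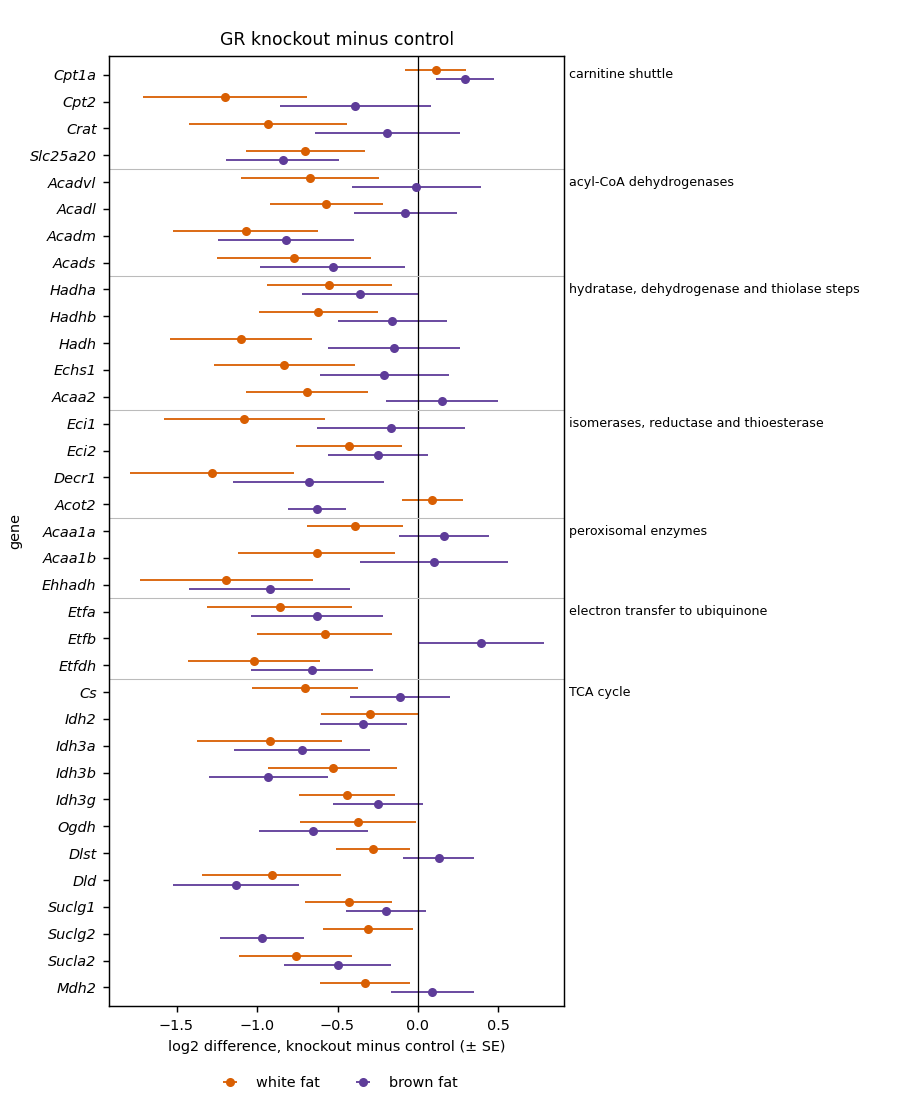
Log2 difference of GR knockout minus control ± SE for each of the 35 genes in white fat (orange, upper point) and brown fat (purple, lower point), grouped by enzyme role. Most points lie left of 0 (33 in white fat and 28 in brown fat), and 0 passed the threshold in either depot.

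The difference between the depots in the response to knockout was tested as an interaction, the change in brown fat minus the change in white fat. In this test 0 of 35 genes were called by limma, where 0.00398% of all features were, and 1 of 35 passed an unadjusted p of 0.05, against 10.8% of all features. The interaction was positive in 28 of 35 genes, against 38.6% of all features, with a median of 0.27, against -0.16. Acot2 had the smallest p, with an interaction of -0.71 ± 0.26 (SE; limma adjusted p = 0.394). Suclg2 gave -0.66 ± 0.38 and Etfb 0.97 ± 0.58. For Etfb the changes were 0.39 ± 0.39 in brown fat and -0.58 ± 0.42 in white fat. Its white fat levels were 5.08, 5.39 and 7.36 in AdipoKO_WAT and 6.90, 6.73, 6.20 and 6.26 in CTL_WAT, with AdipoKO_WAT 4 above all controls and the other knockout samples below them. Acot2 had white fat levels of -2.36, -2.26 and -1.70 in AdipoKO_WAT and the CTL_WAT levels given above, with no separation of the groups. Without AdipoKO_WAT 4, 21 of 35 genes were called with a higher change in brown than in white fat, where 10.1% of all features were. The median was 1.0, against -0.2 over all features. Without AdipoKO_WAT 1-2 the median interaction was -0.01, against -0.19 over all features. Without AdipoKO_WAT 3 it was 0.08, against -0.04, with 0 genes called in each fit. The median of the 35 genes was thus near 0 without either of these samples, and still above that of all features.

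Related genes outside the 36 were counted by list. Of genes for acyl-CoA synthesis and entry, 10 of 16 were called higher in CTL_BAT than in CTL_WAT and 1 lower (limma). For each of these lists the background was 20.5% of all features called higher and 13.7% called lower. Fabp3, a fatty acid binding protein of muscle and brown fat, had a level of 6.52 ± 0.24 in CTL_BAT and -2.42 ± 0.29 in CTL_WAT (SD, n = 4 each), a difference of 8.94. Of other fatty acid oxidation genes, 12 of 14 were called higher (against 20.5% of all features) and 0 lower, among them the thioesterases Acot1 (2.26 ± 0.28, SE) and Acot13 (2.01 ± 0.26). Of other peroxisomal oxidation genes, 14 of 16 were called higher and 0 lower, against the same background. These included Phyh, the phytanoyl-CoA hydroxylase, at 2.93 ± 0.32, and Decr2, the peroxisomal dienoyl-CoA reductase, at 2.16 ± 0.18.

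Ketone body genes were split, with 3 of 5 called higher and 2 lower, where 20.5% of all features were called higher and 13.7% lower. Acat1, the mitochondrial acetoacetyl-CoA thiolase, was higher by 2.51 ± 0.39. Among the genes called lower was Bdh1, a hydroxybutyrate dehydrogenase, at -4.89, named after its value was seen. Of other TCA and entry genes, 12 of 17 were called higher and 2 lower, against the same 20.5% and 13.7%. Pdk4, a kinase that inhibits pyruvate dehydrogenase, was 44.0-fold higher (5.46 ± 0.37, SE) and Sdhd, a succinate dehydrogenase subunit, 8.06-fold higher. Of regulators of oxidation, 8 of 14 were called higher and 1 lower, again beside 20.5% and 13.7% of all features. The coactivator Ppargc1b was higher by 4.19 ± 0.16 and the nuclear receptor Esrra by 2.26 ± 0.18 (SE; limma adjusted p = 3.35e-09 and 1.41e-06). Ppargc1b had further probes, whose values are not given here. In each of these 6 lists, limma called 0 genes in the knockout comparison of either depot. The list medians, with all features at 0.24 in white fat and 0.08 in brown fat, ranged from -1.05 (other fatty acid oxidation) to -0.13 (regulators) in AdipoKO_WAT against CTL_WAT. In AdipoKO_BAT against CTL_BAT they ranged from -0.67 (other fatty acid oxidation) to 0.03 (regulators).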

How the data were processed

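Processed signals, deposited as intensity, came from Agilent Feature Extraction 12.0.0.7, per the file headers, background-subtracted within each array and not scaled between arrays. The deposited flags are of another kind, 0 or 1 for each spot. The deposited value table, an intensity, matched the mean processed signals within 5e-06 of their size. Control and outlier spots were left out, repeated spots averaged, and log2 levels taken relative to the 75th percentile of the array. Probes well above background on at least 3 arrays of at least 1 group were kept, and named through transcript accessions in a RefSeq (GRCm38) table, which named 28223 of 41174 probes. This left 16677 named genes and 8430 unnamed probes.

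A mean per group was fitted over 15 samples in limma 3.58.1 (R 4.3.3, 11 residual degrees of freedom), with Benjamini-Hochberg adjustment over all 25107 features and a threshold of 0.05, two-sided. The code was checked on simulated data. Normexp correction used the deposited median signals, since the mean signal column is not used here. The genes, lists and alternatives (28 settings) were chosen with earlier results of these data known. Values in every sample are given for the 3 genes with the smallest p in each knockout comparison and the interaction. They are also given for the gene with the smallest p between control depots in each of 7 enzyme groups. Outside this rule, sample values of Cpt1a, Cpt1b, Etfa and Dlst are given, chosen after they were seen. From each related list, the 2 genes with the smallest p between control depots are named. Of these, 1 gene is not reported here. Whether samples with the same number in the labels deviate together was checked: of 24 pairs of arrays, 6 correlated above 0.1 (median r 0.01), so the numbers were not taken as pairs. Of 24 pairs on the same slide, 10 correlated above 0.1 (median r 0.02, from -0.62 to 0.5). Slide was left out of the main fit. With slide as a block, 2 features were called higher and 3 lower in white fat, against 5 and 10. The series' design text calls the replicates biological.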

Additional observations from a re-analysis of the deposited data

Results flagged for a closer look

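Dixon's test of the highest and lowest sample was run on 105 groups of 4 samples, 1 for each of the 35 genes in AdipoKO_BAT, CTL_BAT and CTL_WAT, and marked 5, where chance marks about 1 in 20. In CTL_WAT 2 the level stood apart for Acadm, at 5.47 against 4.97 to 5.03 in the other controls, and for Echs1, at 5.02 against 4.54 to 4.59. In the same sample Etfdh was at 4.26 against 3.56 to 3.67, and Sucla2 at 4.40 against 3.91 to 3.92. In CTL_BAT 2 the level of Idh3g was 7.90 against 8.0 to 8.02. Leaving out CTL_WAT 2 moved the median difference of the 35 genes between CTL_BAT and CTL_WAT to 2.85.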

How the results depend on the processing

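Over 28 settings, 411 of the summary values kept their direction and their side of the threshold, or moved by less than the spread, and 6 moved. Of the single genes named, 441 values kept theirs, 4 became called, and 0 reversed. The median difference between CTL_BAT and CTL_WAT was 2.14 after normexp correction with quantile normalization, 2.22 after quantile normalization and 2.98 after median centring. That last setting moved the median of all features to 0.42 and called 31.1% of them higher and 10.9% lower. It also gave medians of -0.43 in brown fat and 0.12 for the interaction, against -0.25 and 0.27. The medians of all features moved too, to -0.09 in brown fat and -0.31 for the interaction, against 0.08 and -0.16.

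Leaving out 1 sample at a time gave 32 to 34 genes called higher in CTL_BAT than in CTL_WAT (medians 2.62 to 2.85), and 34 in AdipoKO_BAT than in AdipoKO_WAT (2.56 to 3.69). For AdipoKO_WAT against CTL_WAT it gave 0 to 32 genes called lower (medians -1.29 to -0.27), and for AdipoKO_BAT against CTL_BAT 0 (-0.33 to -0.19). For the interaction it gave 0 to 21 called higher (-0.01 to 1.0). The upper counts in white fat and in the interaction came without AdipoKO_WAT 4, when the changes of Decr1, Etfdh and Hadh were -2.11, -1.69 and -1.93 and the interaction of Etfb was 1.68. Such a fit assumes that the samples left vary like the other groups. With AdipoKO_WAT 1 and 2 as separate samples, 79 features were called higher and 205 lower in white fat, against 5 and 10, and 0 of the 35 genes, and the median interaction was 0.52. Without AdipoKO_BAT 1 and 2 the median interaction was 0.48, against -0.27 over all features. With the replicate block, the medians were -0.66 in white fat, -0.25 in brown fat, 0.26 for the interaction, 2.71 between depots in controls and 3.02 in knockouts, and no call of a summary value changed. Probes near background were not a limit for the 35 genes.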

Other observations

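The spread between samples of the 35 genes differed among the groups. Their median SD was 0.24 in AdipoKO_BAT and 0.08 in CTL_BAT, where all features had 0.37 and 0.19. In white fat it was 1.10 in AdipoKO_WAT and 0.24 in CTL_WAT, where all features had 0.62 and 0.37. Mdh2 was the steadiest gene in CTL_BAT, with an SD of 0.01, and Cpt1a the least steady, at 0.19. In AdipoKO_WAT Cpt1a had the lowest SD of the 35 genes, 0.20, and Cpt2 the highest, 1.62.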
